A study of Mus musculus with 12 samples.

Results

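Replication fork direction was compared between EpiLCs and naive ESCs of the KMT2C/D dKO line, which lacks both KMT2C and KMT2D, using Okazaki fragment sequencing (OK-seq). The samples compared are set by their labels, not by measured values, and are 4 of the 12 samples of the series: 2 biological replicates of naive dKO cells and 2 of dKO EpiLCs. The naive cells were kept in medium with LIF and 2i, and the EpiLCs (epiblast-like cells of the formative state) were obtained by withdrawing them, with differentiation followed by reporter cells grown in parallel. The dKO line came from ES cells of mixed C57BL/6 and 129 background that lack KMT2C and carry a conditional KMT2D allele and CreER, and KMT2D was removed with 4-hydroxytamoxifen. The control line used for comparison is itself a KMT2C KO, so the dKO and the control share the loss of KMT2C and differ in KMT2D. The third line, dCD, was made in R1 ES cells (129 background) and carries catalytically dead KMT2C and KMT2D, so its background differs from that of the other lines. The authors summed the replicates of each condition into 1 deposited track, and each value below therefore compares 2 pooled libraries, not replicated conditions, with intervals that cover counting error only. OK-seq measures no expression, so the labelled states and the loss of the enzymes could not be checked against marker genes or transcripts here.

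KMT2C and KMT2D are the catalytic subunits of related complexes that place a single methyl group on lysine 4 of histone H3, mostly at enhancers. Okazaki fragments are the short pieces in which the lagging strand is made, so the strand a fragment maps to tells which way its fork was moving. The Crick share, C/(W+C) of the reads in a window, gives the percentage of forks that moved from left to right in genome coordinates. Forks leave an initiation zone in opposite directions, so the Crick share rises across it from left to right, and it falls where forks converge and terminate.

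The naive dKO track held 3937871 reads and the EpiLC dKO track 12962445. Without the 126 bins of 1 kb whose count exceeded the median over 10 times, and on the autosomes and chromosome X alone, 3916818 and 12918547 reads remained, a mean of 74.4 and 245 reads per 50 kb. The Crick share over all reads was 49.95% in naive cells and 49.96% in EpiLCs. Each chromosome took a like share of the reads in both states, with EpiLC over naive ratios between 0.985 (chromosome 7) and 1.02 (chromosome 13). In every library the Crick share of a bin rose with its content of T minus A relative to neighbouring bins, and more steeply in the naive dKO library (slope 1.70) than in the EpiLC dKO library (slope 1.37). The same order held in the control (1.76 and 1.21) and in dCD (1.82 and 1.42). Values corrected for it, by subtracting the part of each bin's Crick reads that follows its T minus A content, are given beside the main results.

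The pooled track of fork direction was flatter in dKO EpiLCs than in naive dKO cells at each of the 3 window sizes examined. Whether the forks or the libraries differed was not tested. The amplitude, which is the SD of the Crick share over windows after removal of the binomial variance, was 13.3 percentage points in naive cells and 10.6 in EpiLCs over 49783 windows of 50 kb. Over 5028 windows of 500 kb it was 9.01 in naive cells and 7.25 in EpiLCs. Over 524 windows of 5 Mb it was 2.15 and 1.74. The EpiLC amplitude was thus 0.803, 0.804 and 0.811 of the naive amplitude at the 3 sizes. The middle 90% of the 500 kb windows ran from 34.3% to 65.7% Crick in naive cells and from 37.6% to 62.6% in EpiLCs. In 69.4% of the 500 kb windows the EpiLC value lay nearer to 50% than the naive value did. After correction for T minus A content, the amplitude ratios were 0.837, 0.838 and 0.854, so the EpiLC library remained the flatter at each size. Thinning the EpiLC library to the naive depth gave 0.804, 0.805 and 0.812.

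The map of fork direction itself was largely shared between the states. Across windows, Pearson's r between naive and EpiLC Crick shares was 0.832 at 50 kb, 0.936 at 500 kb and 0.926 at 5 Mb. Removing counting noise from the variances gave 0.949, 0.966 and 0.981. These correlations describe windows of 2 libraries that share the same genome sequence, and windows are not replicates.

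**Figure D1:**
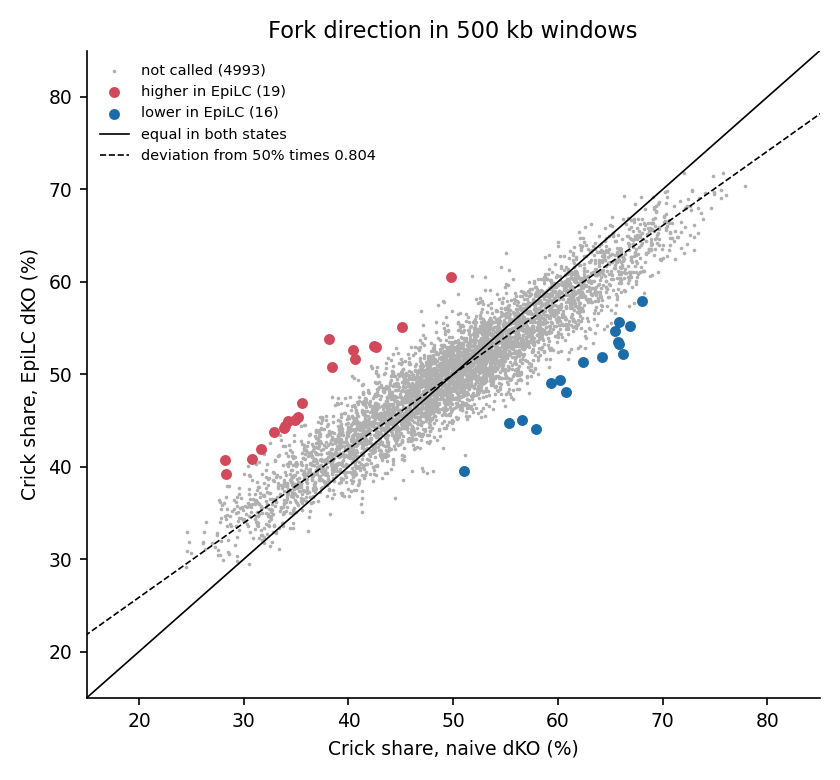
Crick share (%) of 500 kb windows in naive dKO cells (horizontal axis) and dKO EpiLCs (vertical axis), 1 point a window. The cloud lies along the dashed line, where the deviation from 50% is 0.804 of the naive one, and the coloured points are the 19 windows called higher and the 16 called lower in EpiLCs.

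Differences in fork direction of 10 points or more were found in a larger share of the 50 kb windows than of the 500 kb windows. A window was called where the 95% counting interval of EpiLC minus naive (Newcombe) left out 0 and the difference was at least 10 percentage points (5 points at 5 Mb), with at least 20, 200 or 2000 reads in each library. At 50 kb, 2907 windows rose (5.84% of those tested) and 2765 fell (5.55%). At 500 kb, 19 windows rose (0.378%) and 16 fell (0.318%), and 65 were called in all once the EpiLC library was thinned to the naive depth. Without the threshold on size, the interval left out 0 in 2936 windows above and 2797 below 0 of 49783 at 50 kb. At 500 kb it did so in 600 and 588 of 5028, a larger share, so the order of the shares rests on that threshold. At 5 Mb, 0 windows were called (0% in either direction), although the interval left out 0 in 36 windows on the positive and 31 on the negative side. The largest difference below 0 on the 5 Mb grid was -4.13 points (-6.16 to -2.09) at the end of chromosome 5 (150000001 to 151834000, with Brca2, a recombination gene, among its 12 protein-coding genes). That window is cut short by the chromosome end and held 3002 naive reads, against a mean of 7436 per 5 Mb. A counting interval of this level leaves out 0 in some windows where nothing differs, so a single 50 kb call carries little weight.

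Called windows either came nearer to 50% or crossed it in most cases, as did windows in general. Of the 35 called 500 kb windows, 20 came nearer to 50% on the same side, 15 crossed 50%, and 0 moved farther from it on the same side. Of all 5028 tested, 3134 came nearer, 604 crossed and 1290 moved farther. Of the 5672 called 50 kb windows, 3386 came nearer on the same side, 2002 crossed and 284 moved farther, against 27731, 8527 and 13525 of all 49783. The naive value enters both the call and its starting side, so these counts are a description of the called windows. When the naive deviations from 50% were first scaled to the EpiLC amplitude, 9 of the 35 windows of 500 kb stayed called, and after correction for T minus A content 17 of the 35 did. The called 500 kb windows had a median GC content of 39.1%, against 41.4% over all tested windows, and a median of 1 gene start against 2. At 50 kb the called windows had a median GC content of 42.1% against 41.2%. Chromosome X, which is covered at lower depth, held 5 of the 35 called 500 kb windows (14.3%) and 5.67% of the tested ones.

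The 6 largest rises at 500 kb lay on chromosomes X, 8, 1, 5 and 2 (all coordinates are mm10). Of the 12 windows of 500 kb named here and below, 6 stayed called with the naive deviations scaled to the EpiLC amplitude. After correction for T minus A content 11 of the 12 did. The largest was at X:143500001-144000000, which holds Dcx, the microtubule-binding protein doublecortin of migrating neurons, with Pak3, a kinase, and Capn6. Its Crick share was 38.2% (33.0 to 43.6, 317 reads) in naive cells and 53.9% (1272 reads) in EpiLCs, a difference of 15.7 points (9.57 to 21.5). At chr1:175000001-175500000, in Rgs7, a regulator of G protein signalling, it was 38.4% in naive cells and 50.8% in EpiLCs, a difference of 12.4 points (7.59 to 17.1). At chr5:27000001-27500000, which holds Dpp6, an auxiliary subunit of potassium channels, and Speer4b, it was 40.4% and 52.7%, a difference of 12.2 points (8.07 to 16.3). In these 3 windows most forks moved leftward in naive cells and the EpiLC share was at or just above 50%. At chr8:18000001-18500000, without a protein-coding gene, it was 28.2% and 40.7%, a difference of 12.5 points (8.80 to 16.1). At chr8:114000001-114500000, with Nudt7, Vat1l, Clec3a and the oxidoreductase gene Wwox, it was 35.5% and 46.9%, a difference of 11.4 points (7.58 to 15.1). At chr2:43500001-44000000, with Kynu, an enzyme of tryptophan breakdown, and Arhgap15, it was 40.7% and 51.7%, a difference of 11.03 points (6.99 to 14.98).

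Among the 6 largest falls, the window at chr18:47000001-47500000 went from 66.2% (63.2 to 69.1, 970 reads) in naive cells to 52.2% (3035 reads) in EpiLCs, a difference of -14.0 points (-17.4 to -10.5). It holds Commd10, AC117239.2 and Sema6a, a semaphorin of axon guidance. At chr19:50000001-50500000, in Sorcs1, a sorting receptor, the Crick share was 57.9% in naive cells and 44.1% in EpiLCs, a difference of -13.7 points (-18.0 to -9.43), so most forks moved rightward in the first state and leftward in the second. At chr15:38500001-39000000 it was 65.8% and 53.3%, a difference of -12.5 points (-16.7 to -8.14). That window holds Azin1, which regulates polyamine synthesis, Atp6v1c1, a subunit of the vacuolar proton pump, and Baalc. At X:21500001-22000000, with the amino acid transporter Slc6a14 and Gm28269, it was 65.7% and 53.5%, a difference of -12.2 points (-18.1 to -6.05). The remaining 2 windows hold no protein-coding gene. They were at X:80500001-81000000, with 60.8% and 48.1%, and at chr9:90500001-91000000, with 64.2% and 51.9%. The smallest called differences were 10.1 and -10.1 points, and the largest just under the threshold 9.97 and -9.98. The largest 50 kb differences all lay on chromosome X at 23 to 41 naive reads, from -39.2 points (-54.1 to -19.2) at X:45550001-45600000 to 33.7 points (15.9 to 48.7) at X:130650001-130700000. The others were -38.9 at X:164800001-164850000, -36.2 at X:15750001-15800000, 32.9 at X:152950001-153000000 and 32.3 at X:143650001-143700000. The last of these lies in Pak3, inside the 500 kb window with the largest rise.

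**Figure D2:**
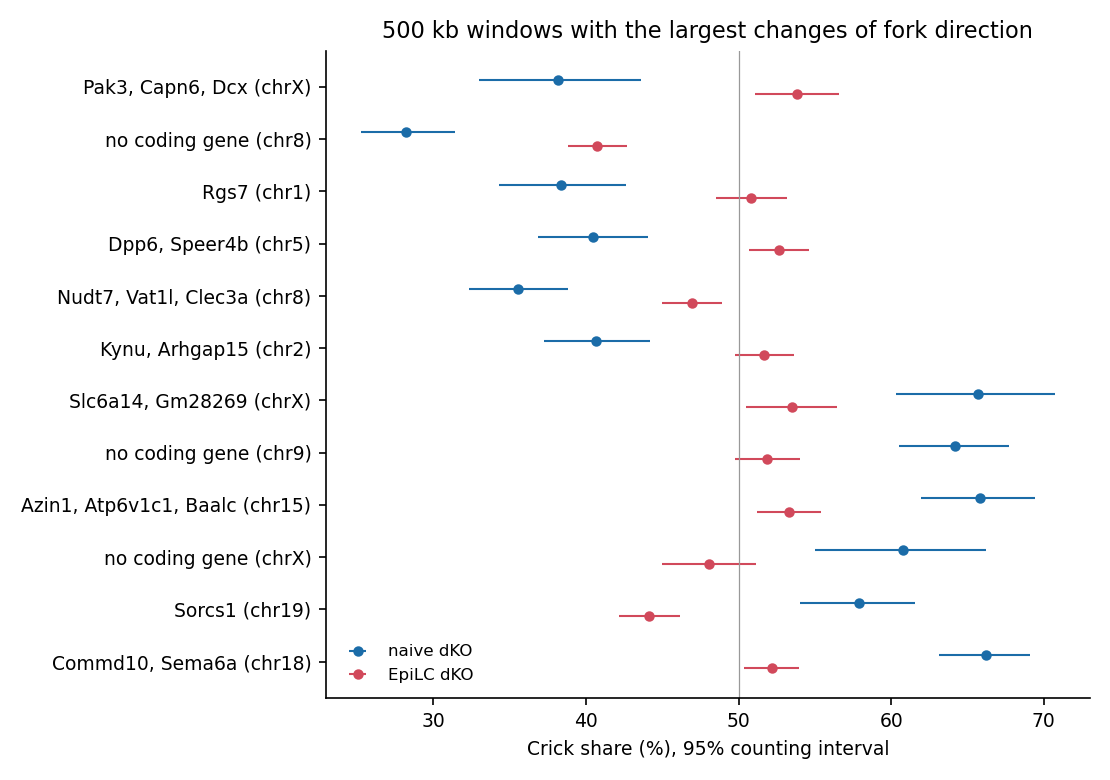
Crick share (%) with its 95% counting interval (Wilson) in naive dKO cells and dKO EpiLCs, for the 6 called 500 kb windows with the largest rise and the 6 with the largest fall, labelled by the protein-coding genes they hold (up to 3). The intervals of the states do not overlap in any of the 12 windows, and the EpiLC values lie between 40.7% and 53.9%.

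To see whether changed windows corresponded to changed initiation or termination, the step in Crick share between neighbouring 500 kb windows was compared, a measure chosen after the window values were known. A positive step is where forks diverge on this scale and a negative one where they converge. Of 4978 boundaries, the step rose by at least 10 points with a counting interval without 0 at 112 (2.25%) and fell at 108 (2.17%). The rises were mostly shallower convergence, since 5 of the 112 had a positive step in naive cells and the mean step was -15.4 points in naive cells and -3.26 in EpiLCs. The falls were mostly shallower divergence, with a positive naive step at 105 of 108 and means of 18.1 and 5.74 points. The naive step enters the call, so its sign and the smaller EpiLC steps follow in part from the choice and only describe the called boundaries. After correction for T minus A content, 60 boundaries rose and 65 fell. Between Plcb1 and Plcb4, phospholipase C genes on chromosome 2 (boundary at 135500000), the step was 28.5 points in naive cells (33.5% to 62.1%) and 10.2 in EpiLCs (42.9% to 53.1%), a change of -18.3 (-23.6 to -13.1). At a boundary without a protein-coding gene on either side (chromosome 1, 114000000) it was 25.4 and 7.54 points, a change of -17.9 (-24.2 to -11.5). Near Trdn, Clvs2 and Rwdd1 (chromosome 10, 33500000) the step was -20.3 points in naive cells and -3.05 in EpiLCs, a change of 17.2 (11.1 to 23.4). Of the other boundaries with large changes, 4 were on chromosome X, at 107500000 (-18.7 points), 80500000 (-18.0), 143500000 (19.3) and 22000000 (17.0).

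At most windows called in the dKO, the control and dCD changed in the same direction, and the dKO calls did not use their libraries. At the 19 rises of 500 kb the mean EpiLC minus naive difference was 11.1 points in the dKO, 4.76 in the control and 8.18 in dCD, with the control above 0 at 15 and dCD at 19. At the 16 falls the means were -11.6, -5.38 and -7.68, with the control below 0 at 15 and dCD at 16. At the 50 kb rises called in the dKO and covered in all 6 libraries (2895), the mean difference was 15.6 points in the dKO, 5.01 in the control and 6.36 in dCD, and at the falls (2747) -15.5, -4.71 and -6.65. The windows were picked for their size in the dKO, so the dKO mean is set by the choice and the smaller means of the other lines are no measure of a weaker change. Over all windows, r between the change in the dKO and the change in the control was 0.275 at 50 kb (49305 windows), 0.50 at 500 kb (5011) and 0.374 at 5 Mb (522). With dCD it was 0.320, 0.584 and 0.433. The lines share no reads, but they share sequence, and after correction for T minus A content r with the control was 0.217, 0.399 and 0.189.

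The 12 named windows of 500 kb moved in the same direction in the control and in dCD as in the dKO. The interval left out 0 at 9 of them in the control and at 10 in dCD. At some of the named 50 kb windows each of these lines moved in the opposite direction, with intervals that held 0. In the window with Commd10 and Sema6a the change was -14.0 points in the dKO, -13.3 (-16.7 to -9.77) in the control and -7.15 (-10.8 to -3.43) in dCD. In the window without a coding gene on chromosome 8 it was 12.5, 10.4 (6.69 to 14.0) and 8.73 (5.19 to 12.1). In the Rgs7 window it was 12.4 in the dKO, 2.70 (-2.11 to 7.47) in the control and 3.36 (-1.30 to 7.95) in dCD. At the 112 boundaries whose step rose in the dKO, the control moved in the same direction at 97 and dCD at 105, and at the 108 whose step fell, at 101 and 96. At the Trdn to Rwdd1 boundary the step changed by 17.2 points in the dKO, by -0.954 (-7.18 to 5.27) in the control and by 0.0851 (-6.20 to 6.37) in dCD, whereas at Plcb1 and Plcb4 they were -18.3, -16.5 (-21.6 to -11.4) and -21.7 (-26.9 to -16.5). Tested directly, the dKO change exceeded the control change by at least 10 points with an interval without 0 in 1878 windows of 50 kb (3.81%) and was lower in 1892 (3.84%). At 500 kb this was so in 23 (0.459%) and 27 (0.539%) of 5011 windows. Among windows called in the dKO, the interval of the dKO minus control difference left out 0 at 16 of 35 (500 kb) and 1275 of 5642 (50 kb). These windows were picked for their dKO change, which enters that difference. The amplitude also fell in the other lines at 500 kb, from 8.04 to 6.44 points in the control (ratio 0.801) and from 11.6 to 8.61 in dCD (ratio 0.741), over windows with reads in all 6 libraries, where the dKO ratio was 0.804.

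**Figure D3:**
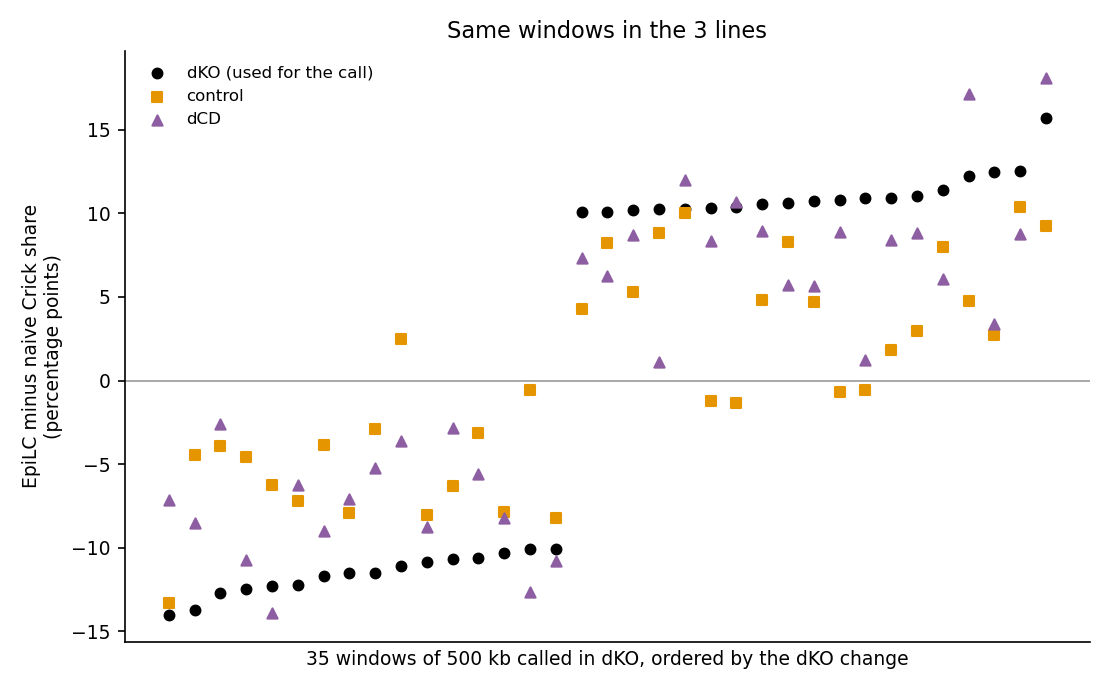
EpiLC minus naive Crick share (percentage points) at the 35 windows of 500 kb called in the dKO, ordered by the dKO change (black circles), with the values of the control (orange squares) and dCD (purple triangles). Control values lie on the same side of 0 as the dKO at 30 of the 35 windows and dCD values at all 35, mostly nearer to 0.

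Gene starts are frequent sites of replication initiation, and their strand bias was lower in dKO EpiLCs. Strand bias is the Crick share on the right side of a start less the share on its left side, each side being 25 kb in genome coordinates, and is positive where forks diverge. Of 21755 protein-coding gene starts (the outermost start of each gene in GENCODE M21), 20679 had at least 10 reads on each side in both libraries. The mean over these starts was 6.27 percentage points in naive cells and 4.62 in EpiLCs, a difference of -1.66 (95% counting interval -1.83 to -1.49). In naive cells the Crick share was 46.9% on the left and 53.2% on the right, and in EpiLCs 47.8% and 52.4%. Read in the direction of transcription, 54.9% of forks downstream of the starts moved with the gene in naive cells and 53.9% in EpiLCs. The difference was negative on all 20 chromosomes, from -2.62 points on chromosome 10 to -1.03 on chromosome 7. It was -0.850 (-1.02 to -0.683) after correction for T minus A content and -0.522 (-0.700 to -0.345) once the EpiLC values were divided by the amplitude ratio of the libraries. The share of starts with a positive strand bias was 66.5% in naive cells and 68.9% in EpiLCs, at different depths.

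The change was larger at starts rich in CpG dinucleotides, which mark many housekeeping and developmental promoters. In the quartile of starts with the fewest CpG within 500 bases (0 to 12), mean strand bias was 1.89 points in naive cells and 1.58 in EpiLCs, a difference of -0.306 (-0.678 to 0.0663). In the second quartile (12 to 41 CpG) it was 4.94 and 3.78, a difference of -1.16 (-1.50 to -0.815), and in the third (41 to 69) 8.10 and 5.58, a difference of -2.51 (-2.85 to -2.18). In the quartile with the most (69 to 172) it was 9.58 and 7.11, a difference of -2.47 (-2.80 to -2.14). The counting intervals of the poorest and the richest quartile do not overlap. EpiLC over naive ratios were 0.838, 0.766, 0.690 and 0.742. After correction for T minus A content the 4 differences were 0.0277 (-0.345 to 0.400), -0.591 (-0.933 to -0.248), -1.50 (-1.83 to -1.16) and -1.23 (-1.56 to -0.894), so that of the poorest quartile changed sign with an interval that held 0. Once divided by the amplitude ratio, the second quartile also had an interval that held 0 (-0.226, -0.590 to 0.137). Other settings gave a fall in the poorest quartile with an interval without 0, of -0.476 (-0.937 to -0.0145) with the EpiLC library thinned and of -1.35 (-2.26 to -0.438) at isolated starts (no other protein-coding start within 50 kb), where the second quartile had -1.13 (-1.83 to -0.428). The reduction in the richest quartile reached beyond the window of 25 kb. Between 25 and 50 kb from the starts the right minus left difference was 10.4 points in naive cells and 8.67 in EpiLCs, and between 50 and 100 kb 10.4 and 8.88. Nearest to the starts, within 5 kb, it was 7.21 and 5.17 points as counted, and 0.690 and -0.176 after correction for T minus A content, so the correction removed most of the step at the start itself. Between 5 and 25 kb, 4.69 and 3.22 points were left after that step.

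**Figure D4:**
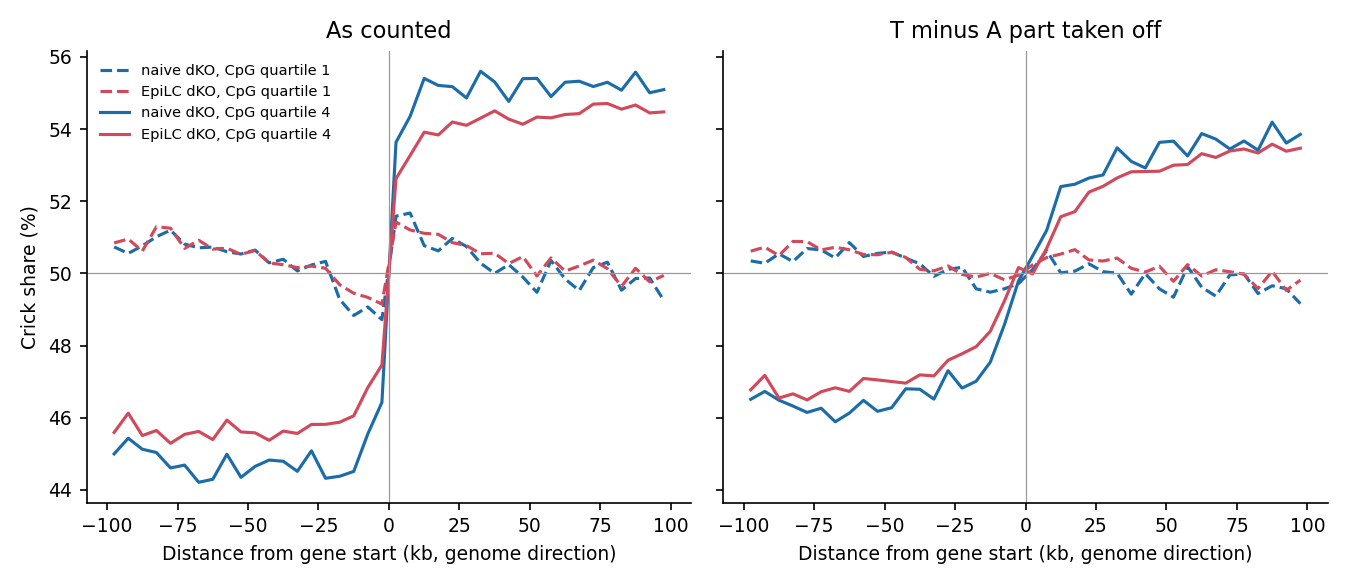
Crick share (%) in steps of 5 kb up to 100 kb on either side of gene starts in genome coordinates, reads summed over starts, for the CpG quartiles 1 (dashed) and 4 (solid) in naive dKO cells (blue) and dKO EpiLCs (red), as counted (left) and after correction for T minus A content (right). In quartile 4 the EpiLC line lies nearer to 50% than the naive line over most of the range on both sides of the start.

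Single starts were compared with 50 kb on each side, because a naive side of 25 kb held a mean of 37.2 reads. Of 21052 starts, strand bias fell with a counting interval without 0 at 1451 (6.89%) and rose at 713 (3.39%), with a median change of -1.43 points. Members of the gene lists are read against these shares. Of 20 naive pluripotency genes, 6 fell and 0 rose, with a median change of -5.92 points. Of 20 formative genes, 3 fell and 0 rose (median -3.89), and of 20 germ layer genes 0 fell and 1 rose (median 0.998). Of 19 genes of the H3K4 methyltransferase complexes, 3 fell and 0 rose (median -6.43), and of 29 replication initiation genes 3 fell and 1 rose (median -4.75). Of 79 ribosomal protein genes, most of which are active in every cell, 7 fell and 1 rose (median -3.62). Of 1088 olfactory receptor genes, which serve in sensory neurons of the nose, 38 fell and 41 rose (median 0.0149).

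List means depended on the length of the sides. The mean change over all starts was -1.46 points (-1.58 to -1.34) with 50 kb sides. That value lies within the intervals of the formative and the ribosomal protein genes given next. Over the 50 kb sides, the mean change was -6.68 points (-10.3 to -3.01) for the naive pluripotency genes, -3.93 (-7.77 to -0.0838) for the formative genes and 2.59 (-1.05 to 6.23) for the germ layer genes. It was -7.29 (-11.1 to -3.51) for the H3K4 methyltransferase genes, -4.54 (-7.55 to -1.53) for the replication initiation genes and -3.25 (-5.07 to -1.43) for the ribosomal protein genes. Over the 25 kb sides, the intervals of all these lists but the ribosomal one held 0. Over 10 kb sides all of them did, and the naive pluripotency genes had -0.641 (-8.84 to 7.56). Strand bias of the naive pluripotency genes was 13.3 points in naive cells and 8.06 in EpiLCs, a difference of -5.23 (-10.5 to 0.0587). The formative genes went from 11.3 to 9.85, a difference of -1.48 (-6.79 to 3.84), and the germ layer genes from 6.98 to 7.83, a difference of 0.843 (-4.37 to 6.05). The H3K4 methyltransferase genes differed by -3.43 (-8.72 to 1.87) and the replication initiation genes by -3.90 (-8.12 to 0.321). With the EpiLC library thinned, the H3K4 methyltransferase value turned to 1.73 (-4.90 to 8.36). After correction for T minus A content the 25 kb changes were -3.51 for the naive pluripotency, -1.85 for the H3K4 methyltransferase and -2.78 for the replication initiation genes, with intervals that held 0. The ribosomal protein genes went from 9.07 to 6.10, a difference of -2.98 (-5.53 to -0.429), which was -2.23 (-4.78 to 0.324) after correction for T minus A content. Its interval also held 0 with 10 kb sides, with reads summed over starts, with the EpiLC library thinned and once divided by the amplitude ratio (-1.48, -4.19 to 1.23). The olfactory receptor genes were at -0.0694 and 0.234, a difference of 0.304 (-0.404 to 1.01).

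The largest fall among the naive pluripotency genes was at Nr5a2, a nuclear receptor that activates Oct4 in early embryos. With 50 kb on each side, its strand bias was 35.7 points in naive cells and 3.97 in EpiLCs, a difference of -31.8 (-47.0 to -16.5), beside -14.9 (-30.0 to 0.263) in the control. At Pecam1, an adhesion receptor found on naive ESCs, it was 28.8 and 5.62, a difference of -23.2 (-37.1 to -9.36), beside -0.995 (-15.3 to 13.3) in the control. At Zfp42, which encodes the naive marker REX1, it was 38.8 and 16.6, a difference of -22.2 (-39.9 to -4.39), beside -2.55 (-21.0 to 15.9) in the control. At Tet2, an enzyme that oxidises 5-methylcytosine, it was 43.6 and 21.96, a difference of -21.7 (-37.3 to -5.96), beside -9.94 (-25.4 to 5.50) in the control. The 2 remaining falls in the list had intervals that ended close to 0. At Tdh, the threonine dehydrogenase of mouse ESC metabolism, the difference was -16.2 (-31.7 to -0.781), beside -17.2 (-31.3 to -3.07) in the control, and at Fgf4, which drives exit from the naive state, -14.3 (-28.4 to -0.190), beside -0.618 (-14.3 to 13.1) in the control. The GENCODE start used for Fgf4 lies 14019 bases from the nearest RefSeq start. Esrrb, Nanog and Klf4, core transcription factors of the naive network, had intervals that held 0. Their values were -7.32 and 5.12 points at Esrrb, a difference of 12.4 (-2.59 to 27.5), 6.71 and 16.2 at Nanog, a difference of 9.50 (-3.35 to 22.4), and 0.257 and 7.32 at Klf4, a difference of 7.07 (-6.59 to 20.7).

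Among the formative genes, Lin28b, an RNA-binding protein that blocks let-7 maturation, had a strand bias of 34.2 points in naive cells and 7.37 in EpiLCs, a difference of -26.8 (-45.0 to -8.70). The GENCODE start used for Lin28b lies 16194 bases from the nearest RefSeq start. At Etv5, an ETS factor downstream of FGF signalling, it was 28.0 and 5.87, a difference of -22.2 (-37.8 to -6.52). At Foxd3, a forkhead factor of the exit from naive pluripotency, it was 45.0 and 28.8, a difference of -16.2 (-30.9 to -1.40). The control changes at these 3 genes were -2.09 (-20.5 to 16.3), -3.19 (-17.8 to 11.5) and -6.15 (-20.5 to 8.19), and the differences between the lines were not tested gene by gene. Fgf5, the standard marker of the formative state, had 3.42 and 2.32 points, a difference of -1.10 (-18.8 to 16.6). Otx2, a transcription factor that directs the transition, had 23.2 and 20.2, a difference of -3.03 (-17.5 to 11.5), and Dnmt3b, a DNA methyltransferase, 21.99 and 16.2, a difference of -5.82 (-19.9 to 8.27). Kmt2c had 21.5 and 18.8 points, a difference of -2.73 (-17.6 to 12.1), and Kmt2d -5.21 and 2.31, a difference of 7.52 (-5.42 to 20.5). Members of the other lists, apart from the olfactory receptors, are named in the following sentences after their values were seen. Among the genes of the H3K4 methyltransferase complexes, Wdr5, a core subunit of all of them, went from 47.7 points in naive cells to 22.5 in EpiLCs, a difference of -25.2 (-39.3 to -11.05), beside -25.4 (-38.7 to -11.99) in the control. Men1, which encodes menin of the KMT2A and KMT2B complexes, differed by -18.1 (-30.3 to -5.83), beside -2.28 (-15.5 to 10.9) in the control. Paxip1, a subunit particular to the KMT2C and KMT2D complexes, differed by -17.8 (-32.8 to -2.82), beside -33.6 (-48.1 to -19.2) in the control. Mcm4 and Mcm2, subunits of the replicative helicase, differed by -17.6 (-33.7 to -1.63) and -14.9 (-29.5 to -0.343), and Ticrr, which encodes the origin firing factor Treslin, by -16.2 (-32.1 to -0.351). In the control these 3 genes differed by -8.80 (-24.5 to 6.93), -29.0 (-43.2 to -14.7) and -20.2 (-35.3 to -5.14). Recql4, a helicase of origin firing, was the exception, with -5.74 points in naive cells and 7.91 in EpiLCs, a difference of 13.6 (0.347 to 26.9), beside 5.06 (-8.18 to 18.3) in the control. Eomes, a T-box factor of mesoderm and endoderm, had 5.36 and 22.6 points, a difference of 17.2 (1.46 to 33.0), beside -12.7 (-27.7 to 2.37) in the control. Among the ribosomal protein genes, Rpl34 had the largest fall, from 44.8 to 14.6 points (difference -30.2, -44.7 to -15.7), beside -5.41 (-19.6 to 8.82) in the control. The other falls were at Rpl10l, Rps12, Rpl32, Rpl37, Rps19 and Rpl28, between -25.1 and -15.0 points, where the control differed by between -24.8 (Rps12) and 4.07 (Rpl28). Rpl5 alone rose, from 7.84 to 26.1 points (18.3, 3.15 to 33.4), beside 10.5 (-4.35 to 25.2) in the control.

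At the depth of the naive library, a change smaller than the distance from a value to the end of its interval was not detectable at a single start.

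**Figure D5:**
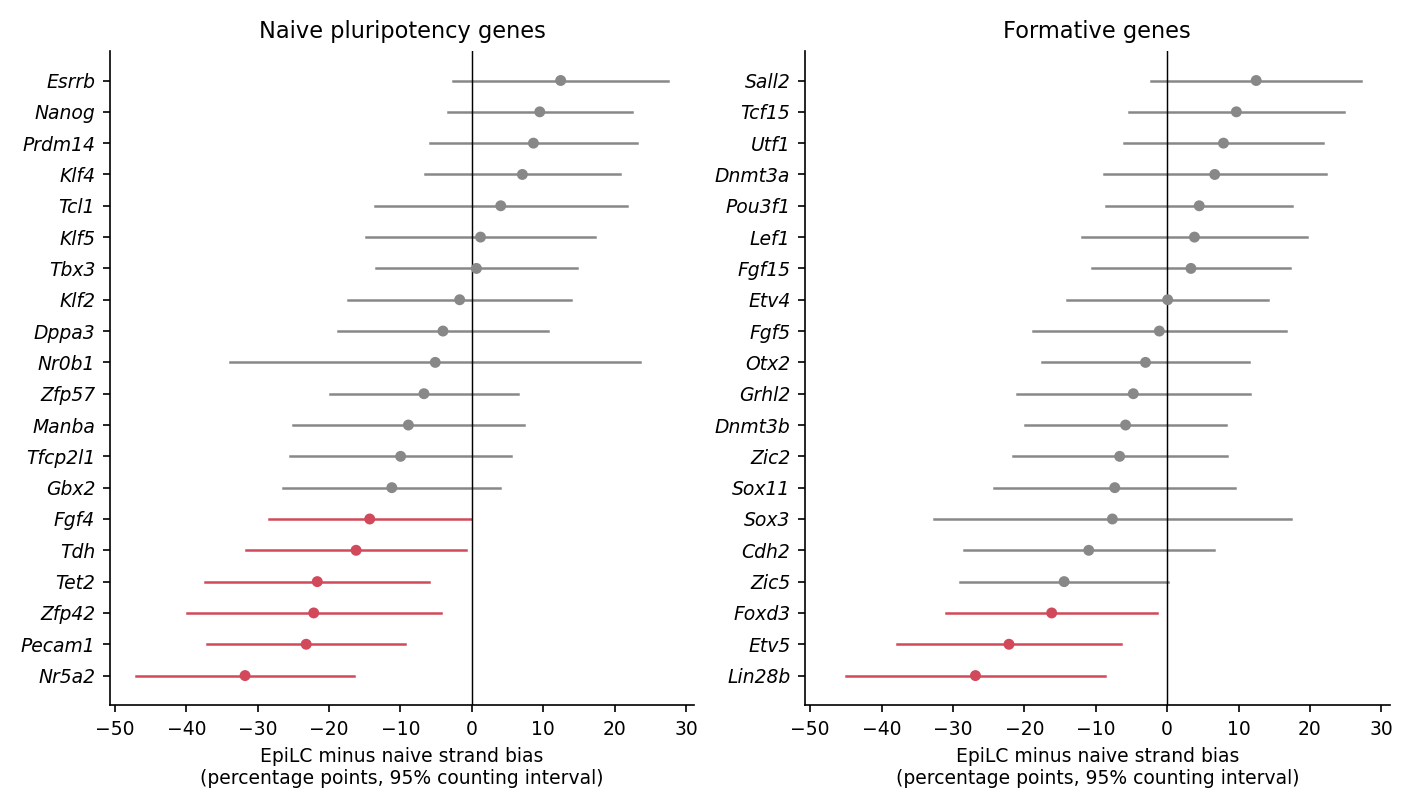
EpiLC minus naive strand bias (percentage points, 50 kb on each side) with 95% counting intervals at the starts of the 20 naive pluripotency and the 20 formative genes in the dKO. The 6 and 3 genes in red have intervals without 0, all of them below 0.

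The genes with a lower strand bias in EpiLCs differed widely in the CpG content of their starts. The extremes among those whose GENCODE start lies within 100 bases of a RefSeq start were Nr5a2, with 5 CpG within 500 bases, and Foxd3, with 95. The 250 bases before each RefSeq start are shown 5′ to 3′ in the direction of the gene (GRCm38.p6), for Nr5a2 from chr1:136960449-136960698 on the minus strand and for Foxd3 from chr4:99656049-99656298 on the plus strand, with each CpG in capitals.
Nr5a2: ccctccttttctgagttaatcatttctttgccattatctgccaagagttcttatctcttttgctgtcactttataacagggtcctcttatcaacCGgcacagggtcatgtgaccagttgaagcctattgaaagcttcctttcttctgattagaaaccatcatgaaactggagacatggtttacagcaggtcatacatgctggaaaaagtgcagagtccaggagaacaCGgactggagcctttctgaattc
Foxd3: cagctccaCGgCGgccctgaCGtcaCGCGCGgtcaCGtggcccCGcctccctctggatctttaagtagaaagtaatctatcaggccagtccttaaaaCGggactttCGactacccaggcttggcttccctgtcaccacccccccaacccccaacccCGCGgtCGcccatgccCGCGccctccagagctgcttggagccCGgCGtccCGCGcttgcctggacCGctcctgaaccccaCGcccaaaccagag
The Nr5a2 sequence holds 2 CpG and the Foxd3 sequence 21. The motif CG reads the same on either strand. Of 32619 RefSeq promoters of this length on the autosomes and X, 92.2% hold at least 1, the median is 6, 81.4% hold as many as Nr5a2 and 16.5% as many as Foxd3. The fall in strand bias was -31.8 points at the first and -16.2 at the second, with overlapping intervals.

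The reduction of strand bias at gene starts was smaller in the dKO than in the control as counted, but the difference had an interval that held 0 after correction for T minus A content and at isolated starts. Over the 20618 starts with reads in both lines, the change was -1.64 (-1.81 to -1.48) in the dKO and -2.11 (-2.27 to -1.95) in the control, where mean strand bias was 6.42 in naive cells and 4.31 in EpiLCs. The dKO minus control difference was 0.464 (0.231 to 0.697), and 0.115 (-0.369 to 0.599) at isolated starts. In the CpG-richest quartile the change was -2.47 in the dKO and -3.56 in the control, a difference of 1.09 (0.632 to 1.56), and in the CpG-poorest quartile -0.263 and -0.447, a difference of 0.183 (-0.336 to 0.703). After correction for T minus A content, the changes over all starts were -0.835 and -0.836, a difference of 0.000332 (-0.233 to 0.233), and the difference in the richest quartile was 0.199 (-0.262 to 0.661). Dividing each line's EpiLC values by its amplitude ratio gave differences of 0.329 (0.0781 to 0.579) over all starts and 0.843 (0.346 to 1.34) in the richest quartile. Over the 20493 starts with reads in the dKO and dCD, the change was -1.65 in the dKO and -1.93 (-2.10 to -1.76) in dCD, a difference of 0.280 (0.0399 to 0.520), and 0.0961 (-0.144 to 0.336) after correction for T minus A content. Once each line's EpiLC values were divided by its amplitude ratio, the dKO minus dCD difference turned to -0.295 (-0.552 to -0.0374). It was 0.379 (-0.0399 to 0.798) with 10 kb sides and 0.229 (-0.0135 to 0.472) with at least 20 reads on each side, so its interval and direction depended on the setting.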

How the data were processed

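OK-seq was analysed in 4 samples of the dKO line, beside the control and dCD lines. According to the methods and the submitters' processing notes, which name FastQC, Trim Galore, Bowtie2 and Picard, reads were aligned to mm10 and Watson and Crick reads were binned in 1 kb bins. The authors deposited, for each condition, a signal of reads per bp for either strand, with both replicates summed and libraries at their own depth. All values were whole multiples of 1 read per bin, so read numbers were recovered. The position was read as the end of a bin, since 0 reads then lie in the 74135 bins of the reference that hold N alone (3045 reads for the other reading).

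Windows, amplitude and strand bias are defined in the text. Counting intervals treat a read shared by neighbouring starts with its summed weight. The T minus A slope of each library was fitted on each bin's Crick share relative to its neighbours. No molecular identifiers are described, so intervals cover counting error only. Groups come from the labels, but the choice to describe this comparison, the gene lists and the tests were made with earlier results of these data known. Named windows are the 6 called 500 kb and 3 called 50 kb windows with the largest difference in each direction; a 5 Mb window is named although not called, and some items are not reported here. Named genes are list members of the naive and formative lists with an interval without 0, plus 8 fixed genes; members of other lists were chosen after their values were seen. Alternatives varied the bins, chromosomes, grid, depth, base-composition correction, read minimum, interval, scaling, side length and averaging (closing section). Procedures were tested on simulated data with planted changes. Those planted in 500 kb windows were larger than most changes called here, so recovery at the called sizes was not tested. Python 3.11.15, NumPy 2.4.6 and pandas 2.3.3 were used. The study's Kruskal-Wallis test over sites was not used, since sites are not replicates.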

Additional observations from a re-analysis of the deposited data

Results flagged for a closer look

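The EpiLC minus naive change of mean strand bias at gene starts differed between the dKO and the control, by 0.464 percentage points (95% counting interval 0.231 to 0.697) over all starts and by 1.09 (0.632 to 1.56) in the quartile with the most CpG, the dKO change being the smaller. These differences were compared by counting error alone, since each line has 1 pooled track a state. After correction for T minus A content they were 0.000332 (-0.233 to 0.233) and 0.199 (-0.262 to 0.661). With EpiLC values divided by the amplitude ratio of each line they were 0.329 (0.0781 to 0.579) and 0.843 (0.346 to 1.34).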

How the results depend on the processing

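No paired analysis was possible because the replicates are summed in the deposited tracks, and for the same reason leaving out a replicate could not be run. Of 223 alternative values for 31 results, 184 kept their direction and their side of the threshold or stayed within the tolerance (1.5 times for amplitude differences and counts, 0.05 for r). Taking off the T minus A part, with slopes that differ between the libraries, moved the amplitude difference to -1.57, -1.08 and -0.212 points (from -2.62, -1.76 and -0.407 at 50 kb, 500 kb and 5 Mb), r of the change with the control to 0.217, 0.399 and 0.189, the count of called 500 kb windows to 18 (from 35, with 17 in both) and that of called boundaries to 125 (from 220). It also moved the change in CpG quartile 1 to 0.0277, that of the ribosomal protein genes to -2.23, and the dKO change minus those of the control and dCD to 0.000332 and 0.0961. With the naive deviations scaled, 9 windows of 500 kb were called, and without leaving out bins 3 windows of 5 Mb were, with r of the change with the control at 5 Mb at 0.551. Thinning the EpiLC library gave 65 called 500 kb windows, r with the control of 0.207, 0.420 and 0.287, and changes of -0.476 in quartile 1, 1.73 for the H3K4 methyltransferase genes (against -3.43) and -2.70 for the ribosomal protein genes. Dividing by the amplitude gave 0.0838 in quartile 1, -0.226 in quartile 2, 0.948 for the formative genes, -1.48 for the ribosomal protein genes and -0.295 for the dKO minus dCD change. With 50 kb on each side the changes were -6.68 for the naive pluripotency, -3.93 for the formative, -7.29 for the H3K4 methyltransferase and -4.54 for the replication initiation genes, all past the threshold. With 10 kb, the ribosomal protein genes had -0.581 and the dKO minus dCD change was 0.379. A minimum of 20 reads gave 0.229 for the latter. Summing reads over starts gave -0.367 for the germ layer and -2.21 for the ribosomal protein genes. Isolated starts gave -1.35 in quartile 1, and dKO minus control and dKO minus dCD changes of 0.115 and 0.179. Gene lists were not run on isolated starts. The cause of these shifts was not tested. The change at all starts and the changes in CpG quartiles 3 and 4 stayed negative with intervals without 0 under each alternative.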
